A study of Homo sapiens with 47 samples.

Results

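The genes described here are 43 genes of the amino acid response, the set of transcripts that the transcription factor ATF4 drives when amino acids run short. They were picked by symbol from the 57507 genes measured, as known ATF4 targets and ATF4 itself. The choice was prompted by ASNS (asparagine synthetase), which varied widely between replicates of the same HAP1 line in earlier results of these data. The spread within HAP1 lines is therefore given as a description without a test. The 43 genes are 13 transcription factors and regulators, 6 enzymes of serine, glycine and one-carbon metabolism, 6 other amino acid enzymes, 7 amino acid transporters, 9 aminoacyl-tRNA synthetases and 2 genes for a secreted protein or a receptor. They lie on 17 chromosomes, and each symbol was given to 1 gene only.

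In the amino acid response, uncharged tRNAs activate the kinase GCN2, which phosphorylates the initiation factor eIF2 and slows most translation while favouring that of ATF4. Kinases that sense unfolded protein in the endoplasmic reticulum, heme shortage or viral RNA converge on the same step, so the wider program is called the integrated stress response. ATF4 protein binds composite C/EBP-ATF elements and raises transcription of genes that make, import and charge amino acids, as well as of DDIT3 (CHOP), TRIB3 and CHAC1, which are linked to prolonged stress. The mRNA of ATF4 was measured here, and its protein was not.

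The study edited NUP58, which encodes a nucleoporin of the central channel of the nuclear pore complex, with Cas9 and guide RNAs, and asked how cells adapt to a hypomorphic essential gene. Bulk RNA sequencing covered HAP1, a near-haploid adherent line derived from a chronic myeloid leukemia, and HCT116, a colon carcinoma line. In HAP1, wild-type cells (WT), a control transfected with Cas9 but no guide RNA (EV) and the NUP58 mutated clones C1 to C6 gave 4 libraries each. In HCT116 there were 4 libraries labelled as the NUP58 mutated clone and 11 unedited ones, namely 2 of WT, 3 of EV1, 4 of EV2 and 2 whose title and genotype disagree on whether they are WT or EV1. EV1 and EV2 were, like EV, given Cas9 without a guide RNA. Each clone grew from a single cell, so that a clone is 1 editing event, and HCT116 has 1 clone. Cells were collected below confluence, and the labels name no amino acid withdrawal and no drug. The libraries of a line carry the numbers 1 to 4. The study describes them as biological experiments, while the labels do not say what the libraries of a number share, and p-values measure the spread between these libraries.

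NUP58 ran from 7.982 to 28 FPKM in the clones of HAP1 and from 34.3 to 50.39 FPKM in the 8 unedited HAP1 libraries, without overlap. FPKM counts fragments relative to the length of the transcript and the mapped fragments of the library. In HCT116, the libraries labelled as the clone had 25.31, 23.27, 44.73 and 24.28 FPKM of NUP58 in replicates 1 to 4. The library labelled clone replicate 3 lay among the controls, while the library labelled EV2 replicate 3, at 23.95 FPKM, lay with the clone, and the other 10 unedited libraries had 28.7 to 50.32 FPKM. Both of these libraries go against their labels for the edited gene, so the HCT116 comparisons were made as labelled and again without the HCT116 libraries numbered 3. Of the markers of colon epithelium, EPCAM, CDH1, KRT19 and ELF3 were present in HCT116 (EPCAM 102.3 to 272.1 FPKM), but LGALS4, VIL1 and CDX1 were at or near 0. In HAP1 the blood markers PTPRC, SPI1 and HBG1 were at 0 and VIM was at 71.35 to 158.4 FPKM, and EPCAM reached 16.7 FPKM in C5 against at most 1.255 elsewhere in HAP1. CD34, CD33, BCR, ABL1 and fibroblast markers were also listed in advance, and their values are not given here. The part of these markers in the results on the amino acid response genes was not tested.

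Of the 43 genes, 41 reached a mean of 1 FPKM in HAP1 and 40 in HCT116 and could be tested there. NUPR1, a small stress-induced regulator, stayed at or below 1.304 FPKM in every library. ALDH1L2, a mitochondrial folate enzyme, stayed at or below 1.434 FPKM. VLDLR, a lipoprotein receptor, was at or below 0.3885 FPKM in HCT116. In bulk RNA, fewer cells that express a gene and less of its RNA per cell cannot be told apart. Whether counting used the strand is not given in the sources used here, so DDIT3 and MARS, which overlap on opposite strands, and ATF5, which overlaps NUP62 and IL4I1, are uncertain. Related pseudogenes could also share reads with ATF4, ASNS, PSAT1, PSPH, MTHFD2, SLC7A5, AARS, GARS, WARS, NARS and CARS.

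Differences and slopes below are on the scale of log2(FPKM + 1), which understates the change of genes near 0, and come with the standard error (SE). A gene was called at an adjusted p under 0.05 by limma, a moderated linear model, two-sided and adjusted by Benjamini-Hochberg over all genes tested.

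The promoters are shown because the response acts through a short DNA element. The window from 250 bases before to 50 bases after the start of each gene (RefSeq, GRCh38.p14) was searched on both strands for TGATGNAA, the core of the C/EBP-ATF element. RefSeq windows were at hand for 36 of the 43 genes, and 9 of the 36 (25.0%) held the motif, against 1264 of 34796 promoters (3.63%) overall. The genes were picked as known ATF4 targets, so the higher share can come from the choice and is not a test. The motif is in capitals and is read 5′ to 3′ on the strand on which it lies. A match is a description of these letters and not proof of a binding site.
ATF3, chr1:212565206-212565233, plus strand: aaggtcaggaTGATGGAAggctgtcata
CHAC1, chr15:40953252-40953279, minus strand: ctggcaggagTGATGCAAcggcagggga
ASNS, chr7:97872459-97872486, minus strand: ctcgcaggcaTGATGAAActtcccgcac
SLC3A2, chr11:62881726-62881748, minus strand: ggagcTGATGTAAggagtcctgc
AARS, chr16:70289676-70289703, plus strand: ctaacttggcTGATGCAActgcgagaaa
MARS, chr12:57488054-57488081, minus strand: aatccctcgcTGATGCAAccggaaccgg
NARS, chr18:57621805-57621832, minus strand: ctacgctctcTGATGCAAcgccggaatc
CARS, chr11:3057408-3057435, plus strand: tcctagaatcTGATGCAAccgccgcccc
IARS, chr9:92293693-92293720, plus strand: cgcacggaggTGATGCAAcgcgctgaaa

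In ASNS the motif ended 61 bases before the start, on the strand of the gene, and in CHAC1 it lay on the opposite strand, from 209 to 202 bases before the start. Among the 9 genes, 5 were aminoacyl-tRNA synthetases, the enzymes that load amino acids onto tRNA, and 4 of these (AARS, MARS, CARS and IARS) carried the same TGATGCAA letters on the strand opposite to the gene. NARS carried them on its own strand. SLC3A2 encodes the heavy chain that pairs with SLC7A5 and SLC7A11 at the membrane, and ATF3 is a stress-induced factor that follows ATF4. CHAC1 cleaves glutathione.

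Within HAP1 lines, the response genes differed between replicates more than most genes did. The pooled standard deviation between replicates of a line (24 degrees of freedom) had a median of 0.616 over the 41 genes, against 0.249 over all 13180 genes tested. Of the 41 genes, 36 lay above the 75th percentile of all genes and 27 above the 90th. The widest were CHAC1 (1.779), DDIT4, an inhibitor of mTORC1 (1.351), PCK2, the mitochondrial PEP carboxykinase (1.32), ASNS (1.231) and CEBPB, a bZIP partner of ATF4 (1.048). The narrowest were ALDH18A1, the first enzyme of proline synthesis (0.086), PPP1R15A, which brings a phosphatase to eIF2 (0.207), and the synthetases NARS (0.241), EPRS (0.276) and IARS (0.317). ATF4 itself was at 0.469, below the median of its targets. These values include ASNS, for whose spread the group was built.

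The other genes lay between these ends. Among the regulators, ATF5 was at 0.931, ATF3 at 0.837, SESN2, which reports leucine shortage to mTORC1, at 0.831, JDP2 at 0.795, TRIB3 at 0.702, DDIT3 at 0.507 and CEBPG, the usual partner of ATF4 on DNA, at 0.483. In serine and one-carbon metabolism the order was PHGDH (0.742), PSAT1 (0.639), SHMT2 (0.638), PSPH (0.522) and MTHFD2 (0.474), with the first step of serine synthesis the widest. CTH was at 0.901, GPT2 at 0.616 and PYCR1, the last enzyme of proline synthesis, at 0.457. Among transporters, SLC6A9 (1.045) and SLC7A11 (0.811) were wider than SLC1A4 (0.592), SLC38A2 (0.492), SLC1A5 (0.452), SLC7A5 (0.448) and SLC3A2 (0.392). The synthetases AARS (0.684), CARS (0.669), SARS (0.629), GARS (0.544), MARS (0.47) and WARS (0.445) were all above NARS, EPRS and IARS. The secreted glycoprotein STC2 was at 0.673 and VLDLR at 0.494.

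This spread followed the replicate number. Replicate 2 was the high library: the median deviation of the 41 genes from the mean of their line was above 0 in replicate 2 of 8 of 8 lines, from 0.10 in C6 to 1.17 in C1. Replicate 3 was below 0 in all 8 lines, from -0.59 to -0.24, and replicate 4 was below 0 in 7, with C6 the exception at 0.28. Over all genes tested, the same medians stayed between -0.055 and 0.065. In C1 replicate 2, 40 of the 41 genes were above their line mean, and in WT replicate 2, 39 were. Replicate number accounted for a median of 63.8% of the within-line variance of the response genes, against 36.2% over all genes. The share was 74.7% for ATF4, 71.8% for ASNS and 69.7% for CHAC1. It was 6.4% for ATF5, 11% for PPP1R15A and 16.5% for WARS, the lowest shares of the 41.

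**Figure D1:**
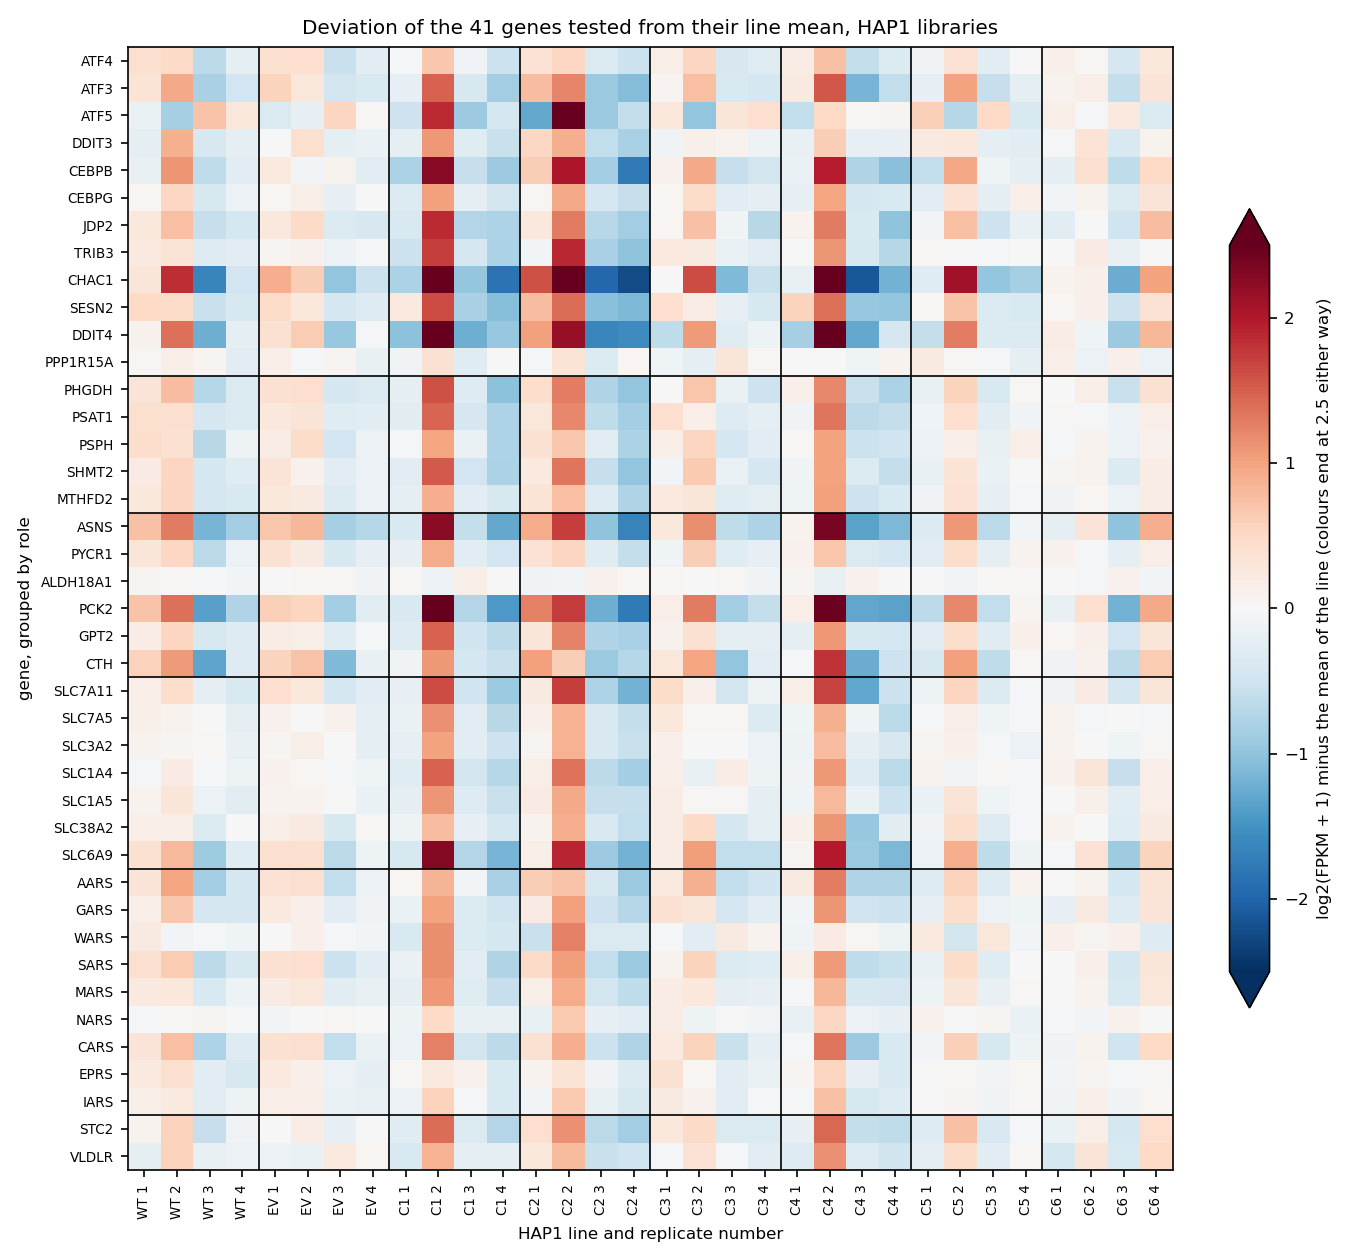
Heat map of 41 amino acid response genes (vertical axis) in 32 HAP1 libraries (horizontal axis, by line and replicate number), showing the deviation of log2(FPKM + 1) from the mean of the line, with colours ending at 2.5. Libraries numbered 2 are mostly above and those numbered 3 and 4 mostly below their line mean, and C6 replicate 4, with a median of 0.28, is the library numbered 4 that lies above.

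Replicate 2 was the highest library of a line in at least 5 of 8 lines for 34 of the 41 genes (27.1% of all genes tested), in at least 6 for 27 (14.2%) and in at least 7 for 15 (3.76%). DDIT3 alone was highest in replicate 2 in 8 of 8 lines (0.326%). ASNS and ATF4 were so in 7 and CHAC1 in 6. The labels do not say what the libraries of a number share, and the relation of number to culture, extraction or sequencing was not tested.

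ASNS, at chr7:97851677-97872542 (minus strand), adds nitrogen to aspartate to make asparagine. In WT it measured 170.5, 250.8, 45.08 and 55.28 FPKM in replicates 1 to 4, and in EV 130.7, 143.5, 44.77 and 48.57. In C1 it measured 72.18, 450.6, 61.98 and 38.11 FPKM, in C2 245.4, 428, 63.03 and 39.78, and in C4 89.2, 433.7, 32.48 and 37.49. Replicate 2 stood 3.2-fold above the lowest library in EV and 13.4-fold above it in C4. In C3, ASNS measured 82.52, 154.1, 43.69 and 39.79 FPKM, in C5 80.94, 218.1, 64.05 and 97.24, and in C6 96.52, 142.8, 55.73 and 213.5. Replicates 3 and 4 of WT, EV and C1 to C4 all fell between 32.48 and 63.03 FPKM, edited or not. C6 was the line in which replicate 4 was highest. Every clone overlapped WT.

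ATF4, at chr22:39519695-39522683, moved over a narrower range. It measured 551.8, 585.3, 263.1 and 356.9 FPKM in WT and 530.6, 538.8, 272.7 and 332.2 in EV. Across the clones it ran from 246.5 FPKM in C4 replicate 3 to 667.5 in C1 replicate 2. The ratio of the highest to the lowest library within a line was between 1.57 in C5 and 2.52 in C4. In both cell lines ATF4 was thus an abundant transcript that changed by less than ASNS did between the same libraries.

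DDIT3 (chr12:57516588-57521737, minus strand), the CHOP factor linked to stress-induced death, measured 15.03, 34.49, 13.44 and 15.17 FPKM in WT. It measured 14.24, 36.46, 13.31 and 11.09 FPKM in C1, and 34.16, 45.28, 15 and 12.98 in C2. In C3 it stayed between 11.21 and 13.53 FPKM in all 4 replicates. The high DDIT3 libraries of HAP1 were thus replicate 2 of WT, C1, C2 and C4 and replicate 1 of C2, and the groups overlapped.

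TRIB3 (chr20:362835-397559), a pseudokinase that binds ATF4 and dampens the response, measured 33.22, 35.96, 22.13 and 23.3 FPKM in WT. It reached 108.9 FPKM in C1 replicate 2, 149.4 in C2 replicate 2 and 59.2 in C4 replicate 2, and the other HAP1 libraries were between 16.25 and 37.85. In C5 its 4 libraries, at 23.35, 23.26, 22.42 and 22.88 FPKM, differed by 1.04-fold although ASNS in C5 differed between 64.05 and 218.1 FPKM. The 3 HAP1 libraries highest in TRIB3 were also the 3 highest in ASNS.

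CHAC1 (chr15:40952962-40956512) had the widest range. It measured 15.72, 47.4, 3.294 and 8.659 FPKM in WT, 7.684, 181.8, 6.717 and 3.191 in C1 and 7.864, 110.9, 1.329 and 3.463 in C4, a span of 83.4-fold within C4. In EV, where CHAC1 was at 18.75, 15.04, 4.322 and 6.275 FPKM, the span was 4.34-fold. DDIT4 spanned 24.6-fold in C1, PCK2 17.1-fold in C1, CEBPB 17.6-fold in C2 and SLC6A9, a glycine transporter, 13.7-fold in C1. ATF5 (chr19:49928702-49933935) spanned 18.4-fold in C2, but in C3 its replicate 2 was the lowest library, at 10.55 FPKM against 26.77 to 29.7 in the others.

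**Figure D2:**
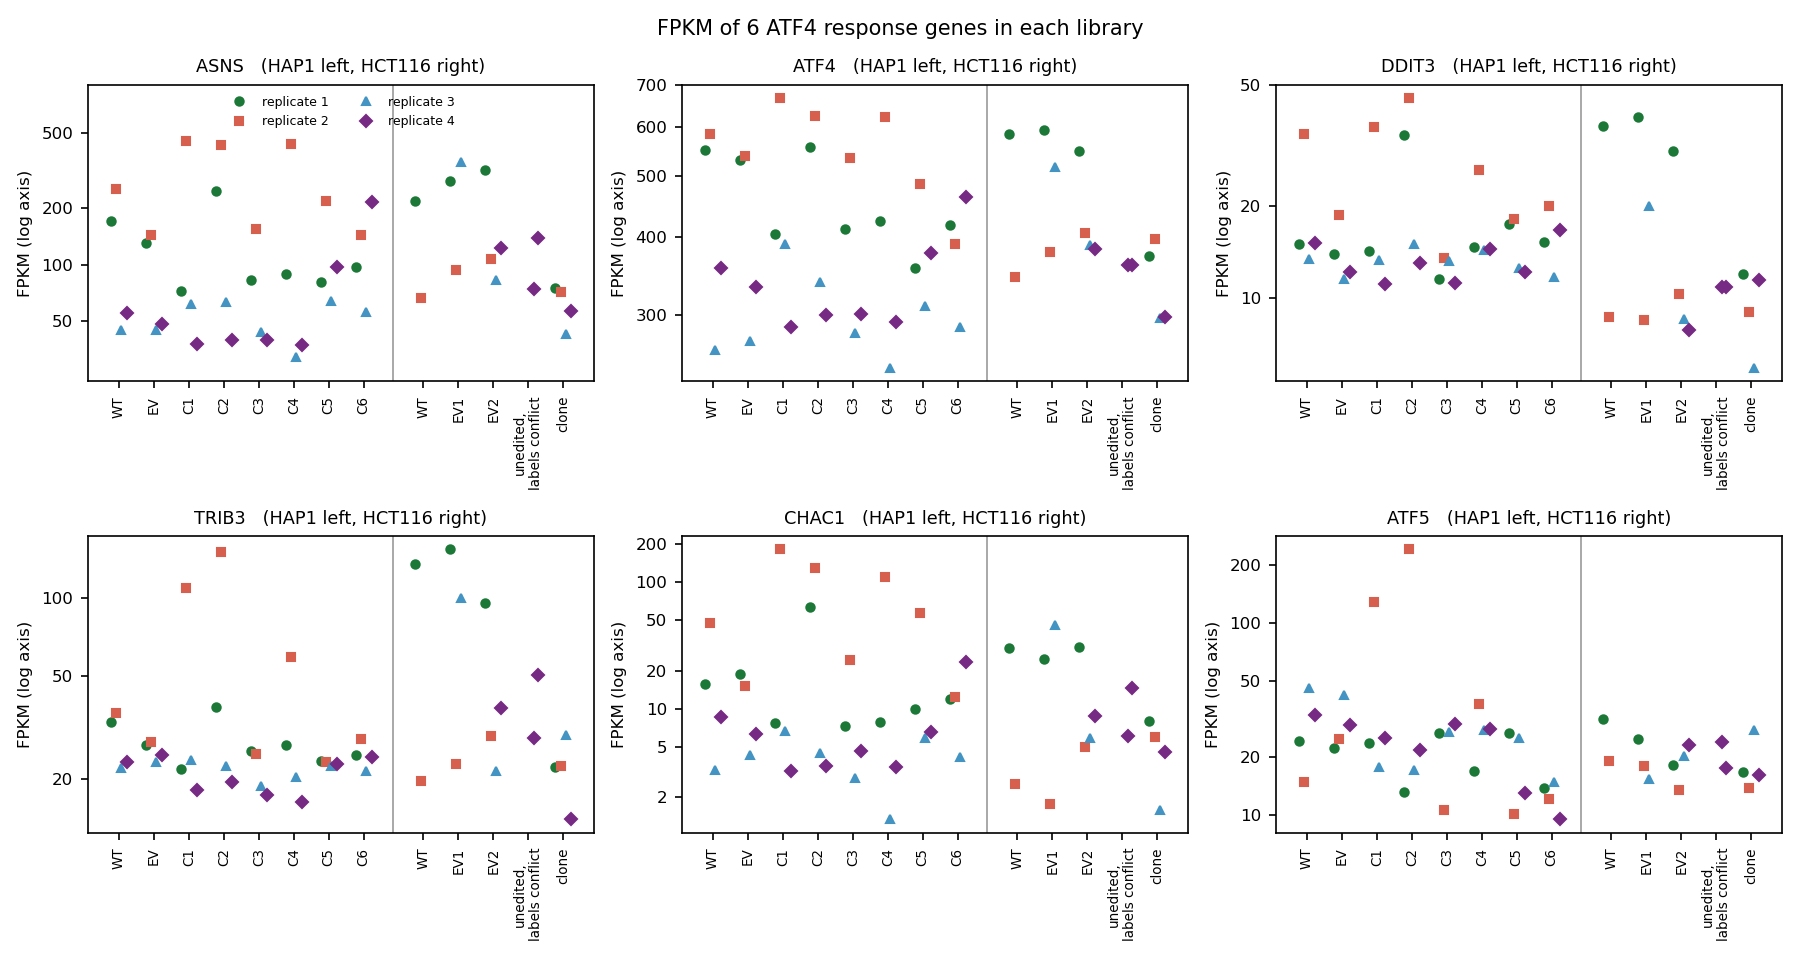
FPKM (log axis) of ASNS, ATF4, DDIT3, TRIB3, CHAC1 and ATF5 in each library by line (horizontal axis), HAP1 on the left and HCT116 on the right, with colour and marker for the replicate number. Replicate 2 of C1, C2 and C4 holds the highest HAP1 values of ASNS (433.7 to 450.6 FPKM in C4 and C1), and the groups of edited and unedited HAP1 libraries overlap for each gene.

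In HCT116 the median spread from library to library was lower than in HAP1, a difference that was not tested. The pooled standard deviation (13 degrees of freedom, clone and unedited groups) had a median of 0.419 over 40 genes, against 0.271 over all genes, and 22 lay above the 75th and 12 above the 90th percentile. Without the libraries numbered 3 the medians were 0.359 and 0.251, a setting added after seeing the data. CHAC1 was again the widest at 1.263, followed by TRIB3 at 0.982, DDIT4 at 0.852, ATF3 at 0.791, DDIT3 at 0.78 and ASNS at 0.779. TRIB3, DDIT3, PPP1R15A (0.487), SLC7A5 (0.515), EPRS (0.303) and ALDH18A1 (0.147) were wider in HCT116 than in HAP1. In HCT116 the high unedited libraries were those numbered 1 and EV1 replicate 3. TRIB3 measured 134.3, 153.4 and 95.67 FPKM in replicate 1 of WT, EV1 and EV2 and 99.57 in EV1 replicate 3, and between 19.55 and 50.38 in the other 7 unedited libraries. CHAC1 measured 24.51 to 45.78 FPKM in those 4 libraries and 1.773 to 14.52 in the other 7. The 4 clone libraries, at 13.96 to 29.64 FPKM of TRIB3 and 1.571 to 7.966 of CHAC1, were in the range of the low ones or below.

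To describe how the genes moved with ASNS from library to library, each was regressed on ASNS within lines (a slope of 1 means that a doubling of ASNS goes with a doubling of the gene). In HAP1, where ASNS had prompted the choice of the genes, the slopes are a description. They had a median of 0.414 over 40 genes and 0.024 over all genes. The steepest were CHAC1 (1.40), PCK2 (1.06), DDIT4 (1.00) and SLC6A9 (0.82). ATF4 had a slope of 0.37 and ATF5 of 0.15, and those of PPP1R15A (0.05) and ALDH18A1 (-0.04) were near 0.

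The spread that prompted the choice was that of HAP1, but earlier results of these data were known when the tests were chosen. In HCT116, 16 of 39 genes rose with ASNS and none of the 39 fell. Of all genes, 0.394% rose and 0.486% passed in either direction. The median slope was 0.428, against -0.010 over all genes. CHAC1 rose by 1.50 (SE 0.159, limma adjusted p = 0.00034), TRIB3 by 1.10 (SE 0.157, adjusted p = 0.00351), DDIT4 by 1.04 (SE 0.0917, adjusted p = 5.43e-05) and PCK2 by 0.91 (SE 0.11, adjusted p = 0.000658). ATF4 rose by 0.32 (SE 0.057, limma adjusted p = 0.0182). By role, 6 of 12 transcription factors and regulators, 2 of 5 serine and one-carbon enzymes, 2 of 5 other enzymes, 3 of 7 transporters and 3 of 9 synthetases rose with ASNS. Besides these 5, the calls were ATF3, DDIT3, PHGDH (the first enzyme of serine synthesis), PSAT1 (the second), GPT2 (an alanine transaminase), the cystine transporter SLC7A11, the neutral amino acid transporter SLC1A4, SLC6A9, AARS, SARS and CARS. Slopes of ATF5, ALDH18A1 and EPRS were at -0.03 each and did not pass.

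These HCT116 calls depended on the libraries in the fit. Without the libraries numbered 3, 27 of the 39 passed (8.58% of all genes), and without EV2 replicate 1, 10 passed (0.123%). CHAC1, DDIT4 and CARS, 3 of the 39, passed once the replicate number was a block, where 0.0309% of all genes did, while TRIB3 kept a slope of 0.85 (limma adjusted p = 0.32) and PCK2 one of 0.80 (adjusted p = 0.117). The high ASNS libraries of HCT116 were mostly of 1 replicate number, and number and ASNS level can be told apart only in part.

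**Figure D3:**
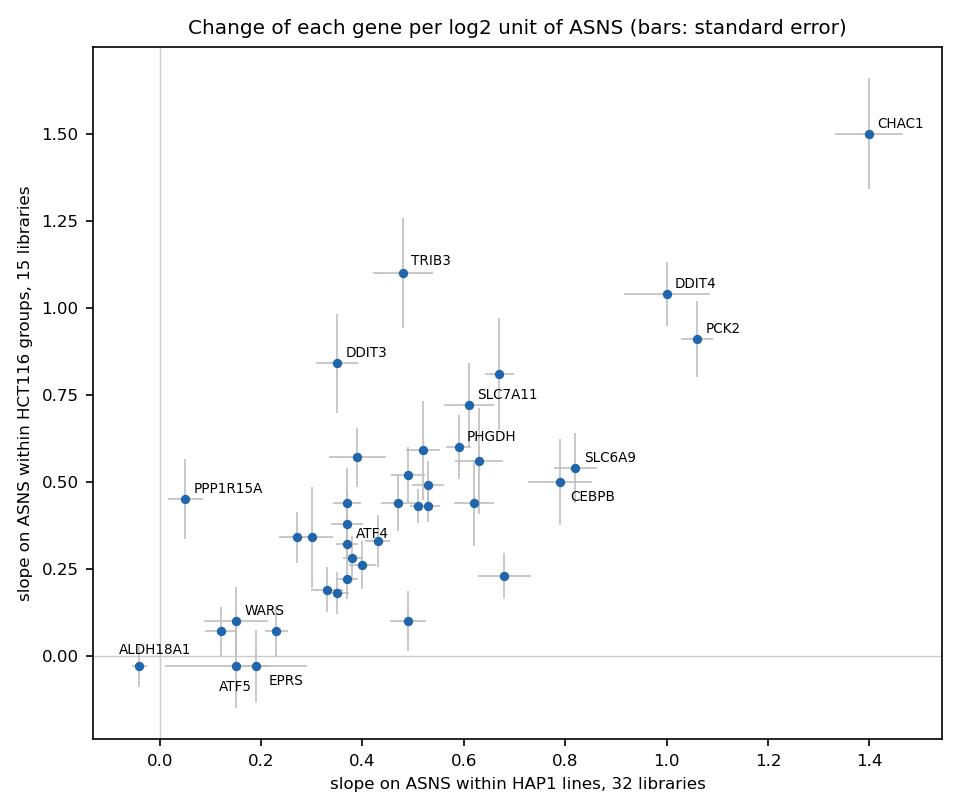
Slope of each of 39 amino acid response genes on ASNS (log2 per log2) within HAP1 lines (horizontal axis) and within the clone and unedited groups of HCT116 (vertical axis), with bars of 1 SE. CHAC1, at 1.40 and 1.50, lies farthest from the origin on both axes, and ALDH18A1, at -0.04 and -0.03, lies near it.

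The slopes of genes with and without the promoter motif overlapped. In HAP1 the 8 genes with TGATGNAA in the window and a slope had a median slope of 0.45 (0.12 to 1.40), and the 27 without it 0.39 (-0.04 to 1.06). In HCT116 the medians were 0.38 (0.07 to 1.50) with the motif and 0.44 (-0.03 to 1.10) without. CHAC1 was the steepest and NARS among the flattest of those that hold the motif. ASNS, also a holder, was the regressor and has no slope.

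Next, each HAP1 clone was compared with WT, which asked whether NUP58 editing shifted the response genes beyond their spread. The 7 comparisons share the 4 WT libraries. No response gene was called in C1, C2, C3 or C4 by limma, where 0.479%, 0.732%, 0.0911% and 0.16% of all genes were called. An unadjusted p under 0.05 was reached by 0 of 41 in C1, C2 and C4 and by 2 in C3 (11.7%, 12.7%, 6.63% and 4.8% of all genes). With the replicate number, which pairs these libraries with WT, as a block, it was reached by 3 of 41 in C1 (17.9% of all genes), 13 in C2 (17.6%), 20 in C3 (14.8%) and 0 in C4 (19.3%). Without the block the unmoderated Welch test called 0 in each of the 4. The median difference of the 41 genes was 0.151 in C1, 0.345 in C2, -0.219 in C3 and 0.011 in C4, against -0.031, -0.029, -0.015 and -0.035 over all genes. In C2, 37 of the 41 were above WT, and in C3, 38 were below. These medians rested on single libraries: without replicate 2 of the clone, that of C1 became -0.302, that of C2 -0.033 and that of C4 -0.317. That of C3 ran from -0.354 to -0.045 without single libraries, the latter without WT replicate 2. In C3, with the number as a block (0.622% of all genes called) PSAT1, the aminotransferase of serine synthesis, was lower by 0.44 (SE 0.0761, limma adjusted p = 0.0474). EV, unedited, also had 38 of 41 genes below WT, with a median of -0.103 that became 0.028 without WT replicate 2, and no response gene was called (0.038% of all genes by limma; 0 of 41 at an unadjusted p under 0.05, where 2.08% of all genes passed, and 0 by Welch). With the block 6 of the 41 had an unadjusted p under 0.05 in EV, where 5.8% of all genes did.

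C5 had 1 call, SLC1A4 (7.55% of all genes called, 4.27% lower), a transporter of serine, alanine and threonine. It measured 5.833, 5.128, 5.64 and 5.292 FPKM in C5 and 8.331, 10.17, 8.49 and 7.878 in WT, without overlap, and 7.552 to 8.935 in EV. SLC1A4 fell by 0.58 (SE 0.126, limma adjusted p = 0.0214), a call that was lost without WT replicate 1 (adjusted p = 0.0537) and without replicate 1 (0.0517), 3 (0.0567) or 4 (0.074) of C5. With EV as the control 3 response genes were called in C5, 2 higher and 1 lower (14.4% of all genes). With WT and EV together 7 were called, 3 higher and 4 lower (20.1% of all genes). With the replicate block 6 were called, 2 higher and 4 lower (16.3%).

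C6 had 4 calls, all lower, where 11.7% of all genes were called and 5.39% were lower. PPP1R15A (chr19:48872212-48876059) measured 3.98, 3.004, 3.816 and 2.967 FPKM in C6 against 6.42, 7.122, 6.611 and 4.965 in WT and fell by 0.71 (SE 0.158, limma adjusted p = 0.0181). WARS, the tryptophan synthetase, measured 78.77, 75.88, 78.85 and 57.17 FPKM against 127, 102.9, 104.7 and 101.3 and fell by 0.58 (SE 0.128, adjusted p = 0.0172). Neither overlapped WT, nor EV, where PPP1R15A was at 5.759 to 7.532 FPKM and WARS at 101.5 to 115.2. These are 2 of the genes that followed replicate number least.

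DDIT4 (chr10:72273919-72276036) measured 4.825, 3.762, 1.722 and 8.097 FPKM in C6 against 20.75, 51.86, 7.672 and 16.05 in WT and fell by 1.99 (SE 0.513, limma adjusted p = 0.0335), with C6 replicate 4 above WT replicate 3. ATF5 measured 13.88, 12.12, 14.88 and 9.459 FPKM against 24.36, 14.91, 45.7 and 33.33 and fell by 1.08 (SE 0.291, adjusted p = 0.0396). It did not overlap WT, the closest libraries being C6 replicate 3 at 14.88 and WT replicate 2 at 14.91. ATF5 lost its call in 7 of 8 fits that left out 1 library (adjusted p from 0.0591 to 0.112, kept without WT replicate 2). DDIT4 lost it without WT replicate 1 or 4 or C6 replicate 1, 2 or 3 (0.0711 to 0.0881), PPP1R15A without WT replicate 1 (0.0516) or C6 replicate 2 (0.0634) and WARS without WT replicate 1 (0.0512), so that without WT replicate 1 no response gene was called in C6. With EV as control 8 response genes were called in C6, 4 higher and 4 lower (20.3% of all genes). With WT and EV together 8 were called, 3 higher and 5 lower (24.3%). Welch's test called 1.

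As the mean of the 6 clones against WT, no response gene was called by limma, against 6.6% of all genes, and 1 of 41, PPP1R15A, passed an unadjusted p under 0.05 (20.1% of all genes). The median difference was -0.013, and -0.017 over all genes. The difference was -0.08 for ASNS (SE 0.616, limma adjusted p = 0.961), -0.09 for ATF4 (SE 0.237, adjusted p = 0.88), -0.14 for DDIT3 (SE 0.257, adjusted p = 0.834) and -0.03 for TRIB3 (SE 0.353, adjusted p = 0.97). Against EV the ASNS difference was 0.26, and without WT replicate 2 it was 0.35. PPP1R15A differed by -0.31 (SE 0.116, adjusted p = 0.119) against WT and was called against EV (-0.39, adjusted p = 0.035) and against WT and EV together (-0.35). These fits measure the spread between libraries of a line and not between clones. With 1 mean for each line, clones against WT and EV, 0 of 41 response genes and 2 of 13180 genes were called.

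**Figure D4:**
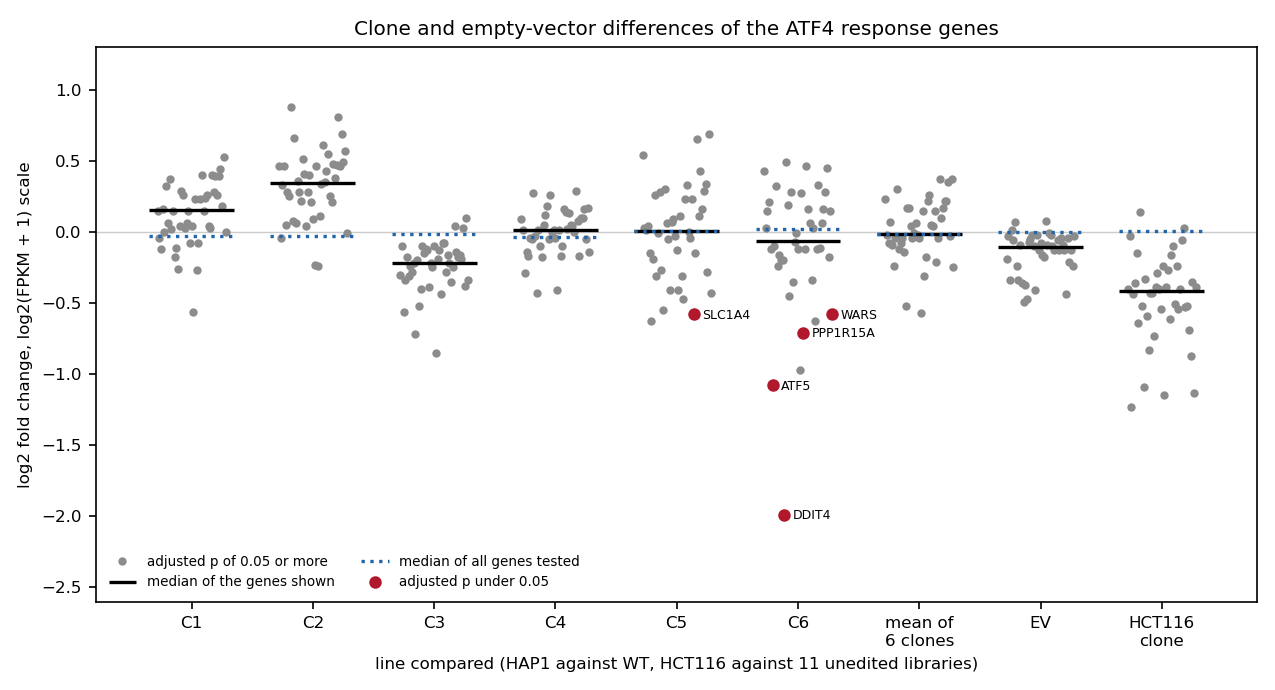
Difference in log2(FPKM + 1) of each amino acid response gene in C1 to C6, their mean and EV against WT and in the HCT116 clone against unedited libraries. Points are genes, red points are called, the black bar is their median and the dotted blue line the median of all genes, and the medians run from -0.418 in HCT116 to 0.345 in C2.

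Among the 6 clones, without reference to WT, a moderated F-test called no response gene, where 15.8% of all genes were called, and 2 of 41 passed an unadjusted p under 0.05 (27% of all genes). The range between the highest and the lowest clone mean had a median of 0.657 over the response genes and 0.390 over all genes. C2 had the highest mean for 30 of the 41 genes (10.7% of all genes) and C3 the lowest for 28 (16.3%). With the replicate number as a block, 5 were called, where 25.9% of all genes were: DDIT4 (range 2.27, limma adjusted p = 0.0436), DDIT3 (0.88, adjusted p = 0.043), PPP1R15A (0.58, adjusted p = 0.0402), IARS (0.69, adjusted p = 0.0152) and EPRS (0.59, adjusted p = 0.01). IARS was highest in C6, at 135.8 to 157.2 FPKM, and lowest in C5, at 83.77 to 93.57, and EPRS was also highest in C6, at 70.68 to 77.7 FPKM. EPRS and IARS, 2 of the 5 genes with the narrowest spread between replicates, charge tRNAs with glutamate and proline and with isoleucine within the multisynthetase complex.

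In HCT116, 38 of 40 response genes were lower in the clone than in unedited cells by their means, and limma called none of the 40 and none of 12960 genes (0%). At an unadjusted p under 0.05, 19 of 40 passed, against 10.4% of all genes. With the replicate number as a block 26 of 40 did, where 1599 of 12960 genes did, and limma again called none. Without the block the Welch test called 0 response genes. The median difference was -0.418, and 0.004 over all genes. By role it was -0.40 for transcription factors and regulators, -0.54 for serine and one-carbon enzymes, -0.53 for other enzymes, -0.52 for transporters and -0.40 for synthetases. ASNS measured 75.31, 71.28, 42.59 and 56.35 FPKM in the libraries labelled clone and 66.8 to 349.5, with a median of 122.6, in the unedited ones. Its difference was -1.23 (SE 0.401, limma adjusted p = 0.353). ATF4 measured 372.8, 396, 296.2 and 297.3 FPKM against 345.3 to 594.2, a difference of -0.36 (SE 0.16, adjusted p = 0.453). DDIT3 differed by -0.59 (SE 0.403, adjusted p = 0.617) and TRIB3 by -1.13 (SE 0.504, adjusted p = 0.453), and the groups overlapped for all 4 genes. Without the libraries numbered 3 the differences were -1.01 for ASNS (adjusted p = 0.157), -0.29 for ATF4 (0.378), -0.43 for DDIT3 (0.616) and -1.30 for TRIB3 (0.181).

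Without the HCT116 libraries numbered 3, 6 response genes were called and all were lower, where 5.92% of all genes were called. SLC7A5, the large neutral amino acid transporter, measured 101.8, 103.1 and 78.48 FPKM in clone replicates 1, 2 and 4 against 142.3 to 268.4 in the remaining unedited libraries. The library labelled clone replicate 3 had 219.4 FPKM of SLC7A5 and the library labelled EV2 replicate 3 had 103.6. SLC7A5 fell by 1.22 (SE 0.177, limma adjusted p = 0.00269), against -0.87 (adjusted p = 0.332) with all libraries. SHMT2, which makes glycine and one-carbon units in mitochondria, fell by 0.71 (SE 0.12, adjusted p = 0.00501) and MTHFD2, the next folate enzyme, by 0.57 (SE 0.142, adjusted p = 0.0325). The synthetases EPRS, WARS and IARS fell by 0.64 (SE 0.138, adjusted p = 0.0162), 0.59 (SE 0.111, adjusted p = 0.00886) and 0.52 (SE 0.0909, adjusted p = 0.00619). Leaving out clone replicate 3 alone gave 5 calls (4.27% of all genes). The median over the 40 genes was -0.408 without these libraries, close to that with them.

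EPRS showed the same exchange as SLC7A5 between the libraries numbered 3. It measured 43.6, 38.94 and 40.88 FPKM in clone replicates 1, 2 and 4 and 72.64 in the library labelled clone replicate 3, and 48.34 FPKM in the library labelled EV2 replicate 3 against 52.54 to 86.39 in the other unedited ones. WARS measured 53.23, 48.13 and 52.91 FPKM, and 90.91 in the library labelled clone replicate 3. SLC7A5, EPRS and WARS were picked as called without the libraries numbered 3, a choice that can by itself give this exchange. ASNS, CHAC1 and PCK2 did not show it, since the library labelled clone replicate 3 had the lowest ASNS (42.59 FPKM), CHAC1 (1.571) and PCK2 (7.336) of the 4 labelled clone.

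Compared number by number, the clone lay below every unedited library of the same number for 35 of 40 genes in replicate 1 (26.2% of all genes), for 12 in replicate 2 (33.1%), for 23 in replicate 3 (38.2%) and for 32 in replicate 4 (34.1%). The median difference from the unedited mean was -0.75 in replicate 1, -0.04 in replicate 2, -0.53 in replicate 3 and -0.46 in replicate 4. Deviations of the clone and EV2 from their group means correlated by 0.185, -0.092, -0.341 and -0.282 in replicates 1 to 4. Both means include a library that goes against its label, so these values cannot tell whether libraries of a number are pairs. Replicate 3 has 2 unedited libraries and holds the 2 libraries that go against their labels. In replicate 2, where ASNS was at 66.8 to 106.6 FPKM in the unedited libraries, the clone at 71.28 was within their range. The lower level in the clone was thus seen where the unedited libraries were high, in replicate 1, but also in replicate 4.

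**Figure D5:**
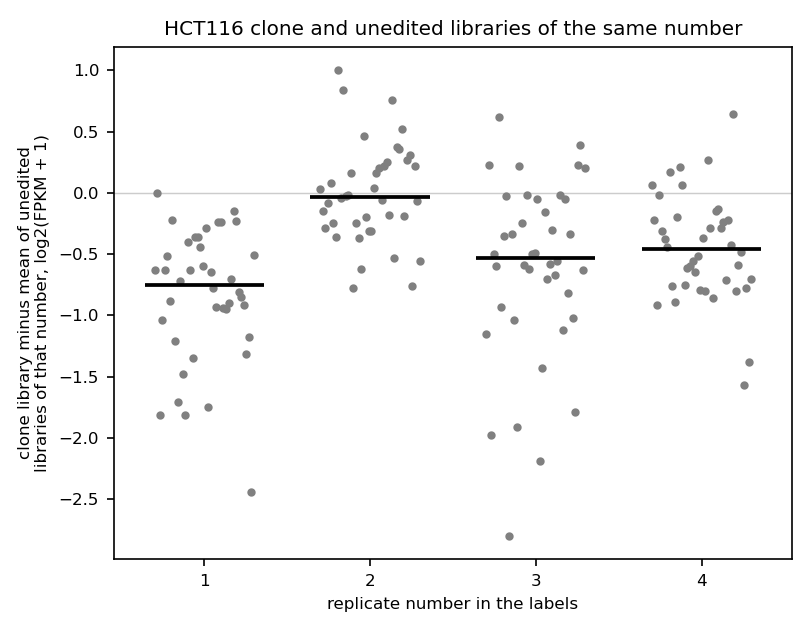
Difference in log2(FPKM + 1) between the library labelled as the HCT116 clone and the mean of the unedited libraries of the same replicate number (horizontal axis), 1 point for each of 40 amino acid response genes. The medians are -0.75, -0.04, -0.53 and -0.46 for replicates 1 to 4.

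Whether the clone effect differed between HAP1 and HCT116 was tested in 1 fit of the 47 libraries. The difference (HAP1 effect minus HCT116 effect) had a median of 0.452 over the 41 genes and -0.015 over all genes, and 39 of 41 were above 0. Limma called none of the 41, against 1.8% of all genes, and 3 passed an unadjusted p under 0.05 (14.1% of all genes). ASNS differed by 1.15 (SE 0.823, limma adjusted p = 0.593), TRIB3 by 1.1 (SE 0.612, adjusted p = 0.443) and SLC7A5 by 1.09 (SE 0.358, adjusted p = 0.102). Without the HCT116 libraries numbered 3, SLC7A5 (1.44, SE 0.333, adjusted p = 0.0051) and EPRS (0.81, SE 0.215, adjusted p = 0.0157) were called, where 6.67% of all genes were.

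In unedited cells, HAP1 and HCT116 differed for 22 of 41 response genes, 8 higher and 14 lower in HAP1, where 68% of all genes differed (39.5% higher and 28.5% lower). At 53.7%, the share of response genes called was not above that of all genes. The split depended on scaling, with 11 higher and 10 lower after scaling to TPM and 6 higher and 15 lower after scaling by median ratios. The median difference of all genes was 0.102 as deposited, 0.174 in TPM and -0.020 by median ratios, and that of the response genes 0.017 as deposited. ATF4 did not pass (-0.08, limma adjusted p = 0.677), nor did ASNS (-0.64, adjusted p = 0.143), CHAC1 (0.04, adjusted p = 0.949) or DDIT3 (0.12, adjusted p = 0.739).

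The widest difference was in SLC38A2 (chr12:46358188-46372773, minus strand), the SNAT2 transporter of small neutral amino acids. It measured 52.05 to 81.49 FPKM, with a median of 74.29, in the 8 unedited HAP1 libraries and 284.2 to 610.8, with a median of 365.1, in the 11 unedited HCT116 ones, lower in HAP1 by 2.52 (SE 0.138, limma adjusted p = 2.61e-13). PPP1R15A ran from 4.965 to 7.532 FPKM against 19.03 to 54.96 and was lower by 1.93 (SE 0.182, adjusted p = 3.79e-09). Neither overlapped. CEBPB ran from 4.198 to 16.38 FPKM against 13.75 to 49.4, lower by 1.88 (SE 0.236, adjusted p = 3.44e-07), and DDIT4 from 6.643 to 51.86 against 27.75 to 146.9, lower by 1.74 (SE 0.384, adjusted p = 0.000389). Both overlapped. For DDIT4 the unedited HCT116 libraries numbered 2, at 27.75 to 34.56 FPKM, all lay within the HAP1 range. SLC38A2 was lower in each HAP1 library than in each HCT116 library, edited or not.

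Higher in HAP1 were SLC1A4, CTH, PHGDH and VLDLR. SLC1A4 ran from 7.552 to 10.17 FPKM against 2.088 to 7.249 and was higher by 1.01 (SE 0.179, limma adjusted p = 3.73e-05). CTH, which makes cysteine from cystathionine, ran from 7.57 to 52.41 FPKM against 6.849 to 13.03, higher by 1.02 (SE 0.261, adjusted p = 0.00158). PHGDH ran from 109.2 to 306.2 FPKM against 50.94 to 163.9, higher by 0.95 (SE 0.232, adjusted p = 0.001). VLDLR, at 2.665 to 6.24 FPKM against at most 0.3885, was higher by 2.06 (SE 0.116, adjusted p = 4.49e-13), and passed the filter only through HAP1, so that it had to differ. ALDH18A1, the flattest gene within lines, ran from 64.83 to 73.52 FPKM against 36.34 to 48.47, without overlap, and was higher by 0.73 (SE 0.0594, adjusted p = 3.03e-10). With the WT libraries alone as unedited cells (4 against 2), 8 genes were called (41.5% of all genes), and CTH (adjusted p = 0.146), PHGDH (0.0847) and DDIT4 (0.145) lost their calls. Without the HCT116 libraries numbered 3, an alternative chosen after seeing the data, 20 were called (66.2% of all genes), among them the 8 genes named here and above for the largest differences.

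Genes around the response were read from lists of their own. Of 11 further reported ATF4 targets, 10 were tested, and their slopes on ASNS within HAP1 lines were all above 0 with a median of 0.32, where that of all genes was 0.024. The steepest were VEGFA (0.68) and EIF4EBP1, a repressor of cap-dependent translation (0.60). In HCT116, VEGFA rose with ASNS (0.38, limma adjusted p = 0.0413) and 9 did not pass. Of 14 chaperones and folding factors of the endoplasmic reticulum, which answer to the unfolded protein response, 12 had slopes below 0 and 2 above 0 in HAP1, with a median of -0.15. CRELD2 was at -0.31 and HERPUD1, which has also been reported as an ATF4 target, at 0.52. In HCT116, CALR (-0.50, adjusted p = 0.019), PDIA4 (-0.38, adjusted p = 0.0138) and CRELD2 (-0.36, adjusted p = 0.0428) fell and HERPUD1 rose (0.41, adjusted p = 0.0266). Without the libraries numbered 3 these 5 kept their calls (adjusted p from 0.0124 to 0.0297). With the replicate number as a block, 4 of 12959 genes passed, 3 of them response genes, so most of these 5 lost their calls. Without EV2 replicate 1, 16 of 12961 genes passed, and 10 of those were response genes. HAP1 slopes are again a description.

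Of the 11 cytosolic synthetases outside the 43 genes, 4 had slopes on ASNS above 0 in HAP1, with YARS the steepest at 0.42, and 7 below 0, with a median of -0.08. The slopes of the 9 within the list had a median of 0.37, and the difference was not tested. Of 13 kinases and eIF2 factors upstream of ATF4, 5 had slopes above 0 and 8 below 0, with a median of -0.08. These slopes stayed between -0.28 and 0.28. In the HCT116 clone the median difference was -0.17 for the 11 synthetases and -0.19 for the 10 further ATF4 targets tested, 8 of them below 0. It was 0.02 for the upstream factors, 0.05 for the chaperones and -0.40 for the 9 synthetases of the response. Limma called no gene of these lists, and none of all 12960 genes tested (0%).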

How the data were processed

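Total RNA of 47 libraries (32 HAP1, 15 HCT116) was made into TruSeq libraries, and per the labels and the study's methods reads were checked with FastQC, aligned to GRCh38 with STAR and quantified with RSEM. The deposited values are FPKM, which the authors made without further normalization between libraries. Versions of these tools and the use of strand are not given in the sources used here. Every column of the table was matched to a sample by the library identifier in the sample's description (0 columns were left over). Reads and read counts were not used here, so depth is unknown, and no interval for counting error is given. The sum of FPKM per library was 604053 to 654081 in HAP1 and 619798 to 721992 in HCT116, with 18020 to 19456 genes above 0. Depth relative to HAP1 WT replicate 1, read from the smallest steps of the values, was 0.748 to 1.155, and 0 pairs of libraries were identical.

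The 43 genes, the lists and the tests were chosen with earlier results of these data known. Genes with a mean of at least 1 FPKM in the libraries of a fit were tested as log2(FPKM + 1), with a pseudocount of 1, by limma 3.58.1 in R 4.3.3 (lmFit, eBayes with a trend, two-sided), adjusted over all genes and called at an adjusted p under 0.05. The fits were 8 libraries for each clone or EV against WT, 32 for the mean of and the differences among the clones, 15 for HCT116, 19 for the cell lines and 47 for the difference between effects. Slopes were fitted on ASNS with line or group as a covariate. Scripts were tested on simulated data. Values by library were given for ASNS, ATF4, DDIT3 and TRIB3, for up to 4 called genes per direction and comparison by size of the difference, and the 5 widest and 5 narrowest genes within lines were named. CHAC1, ATF5, EPRS, IARS, PCK2 and the genes called without the HCT116 libraries numbered 3 were given by library after their values were seen. Other genes of the pathway came from 4 lists. The plan was to name at most 3 called genes of a list, but more chaperones were named for C6 and for the HCT116 slopes.

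Same-numbered HAP1 libraries varied together: deviations from the line mean correlated with those of WT by over 0.1 across genes in 24 of 28 pairs (-0.375 to 0.747) and in all 4 pairs of EV and C1 to C4, but not of C5 and C6. In HCT116 the correlations of the clone with EV2 were 0.185, -0.092, -0.341 and -0.282. Both groups hold a library that goes against its label, so these values cannot tell whether HCT116 libraries pair.

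Positions came from GENCODE 44, which holds all 43 identifiers, and promoters from RefSeq (GRCh38.p14). Python 3.11.15 with pandas 2.3.3, numpy 2.4.6 and, for figures, matplotlib 3.10.9 was used. Alternatives were a pseudocount of 0.1, no filter, median ratio or TPM scaling, a fit without a trend, the replicate block, an unmoderated Welch test, an unadjusted p under 0.01 with a fold change over 2, EV or WT and EV as control, and leaving out clones, the HCT116 libraries numbered 3 (for the cell line comparison and the spread, chosen after seeing the data) or each library in turn.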

Additional observations from a re-analysis of the deposited data

Results flagged for a closer look

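Of 110 groups of 4 libraries, in which 11 amino acid response genes were read, 14 had a library far from the other 3 by Dixon's rule on log2(FPKM + 1) (critical value 0.829), where chance flags about 1 in 20 groups. Replicate 2 of a HAP1 line stood apart in 10 of the 14. It was high for DDIT3 in C4 (26.34 FPKM) and WT (34.49), for TRIB3 in C1 (108.9), for DDIT4 in C1 (155.1) and C5 (32.54), for ATF5 in C1 (128.3) and C2 (242.3) and for WARS in C1 (244.7) and C2 (260.4). It was low for ATF5 in C3, at 10.55 FPKM. WARS, the tryptophan synthetase, had 3 more, namely WT replicate 1 (127 FPKM, high), C6 replicate 4 (57.17, low) and the library labelled HCT116 clone replicate 3 (90.91, high). ATF4 was high in EV2 replicate 1 of HCT116, at 549.1 FPKM. The genes had been chosen for their spread or for their values, so these are a description and not a test, and the cause was not tested.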

How the results depend on the processing

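The number of response genes called moved by over 1.5 times as follows. In C3 it was 1 with the replicate block (0 without). In C5 (1) it was 2 in TPM and by median ratios, 6 with the replicate block, 3 against EV, 7 against WT and EV and 0 at an unadjusted p under 0.01 with a fold change over 2, a threshold at which C6 had 2. In C6 (4) it was 2 without the filter, 8 against EV and against WT and EV, and 1 by Welch's test. The mean of the 6 clones had 1 against EV and against WT and EV. Differences among the clones gave 1 with a pseudocount of 0.1, by median ratios or without a trend and 5 with the replicate block. In HCT116 the clone had 1 at the fold threshold and 6 without the libraries numbered 3, and the difference between clone effects had 1 and 2. Between cell lines (22), 8 were called at the fold threshold and 8 with WT alone. Slopes in HCT116 (16) gave 3 with the replicate block and 27 without the libraries numbered 3.

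Leaving out each library in turn gave 0 to 3 calls in C5, 0 to 5 in C6, 0 to 1 among clones, 0 to 5 in HCT116, 0 to 2 for the difference between effects and 10 to 24 HCT116 slopes. Signs of the mean of the clones turned for ASNS against EV (0.26), WT and EV (0.09), without C3 (0.02) and by line means (0.09). For DDIT3 the values were 0.23, 0.05 and, by line means, 0.05, and for TRIB3 0.09, 0.03, 0.03 without C3, 0.01 without C5 and 0.03 by line means. Without single libraries ASNS ran from -0.47 to 0.35, ATF4 from -0.31 to 0.07, DDIT3 from -0.27 to 0.16 and TRIB3 from -0.14 to 0.08. Of 130 counts under alternatives other than leaving out single libraries, 104 stayed within 1.5 times, and of 284 values of single genes 255 kept direction and side of the threshold. The cause was not tested. Counting error is part of the spread between libraries and was not separated from it, as depth is unknown.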

Other observations

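Of 48 tested genes of the 4 lists around the response, limma called 9 in C6 against WT (18.8%, and 11.7% of all genes), 3 in C5 (6.25%, and 7.55%) and 3 in the mean of the 6 clones (6.25%, and 6.6%). In the mean of the 6 clones, GCN1, a co-activator of the kinase GCN2, was lower by 0.29 (SE 0.088, limma adjusted p = 0.0474). The chaperone SDF2L1 was lower by 0.58 (SE 0.126, adjusted p = 0.00383) and DNAJC3, an inhibitor of eIF2 kinases in the endoplasmic reticulum, by 0.27 (SE 0.0823, adjusted p = 0.042). That fit takes libraries of the clones as replicates, and with 1 mean for each line, clones against WT and EV, the adjusted p of GCN1 was 0.139, that of SDF2L1 0.0654 and that of DNAJC3 0.519. In C6 the chaperones and folding factors DNAJC3 (-0.69, adjusted p = 0.00762), SDF2L1 (-0.68, 0.0101), CALR (-0.62, 0.0461) and PDIA6 (-0.34, 0.0378) were lower, and the glutamine transporter SLC38A1 was higher by 0.39 (adjusted p = 0.0497). In C6, PPP1R15B, the constitutive partner of the eIF2 phosphatase, was higher by 0.95 (SE 0.186, adjusted p = 0.0103), while its inducible counterpart PPP1R15A was lower. LARS, the leucine synthetase, was higher in C6 by 0.67 (SE 0.128, adjusted p = 0.00864) and VARS, the valine synthetase, lower by 0.61 (SE 0.0919, adjusted p = 0.00261). SLC7A1, the arginine and lysine transporter, was lower in C5 by 0.70 (SE 0.141, adjusted p = 0.0165) and in C6 by 0.50 (SE 0.135, adjusted p = 0.041).

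Between unedited cells, limma called 25 of the 48 tested genes of the 4 lists (52.1%), where 68% of all genes were called. GDF15, a secreted stress cytokine, was at a difference of -4.83 (HAP1 minus HCT116, SE 0.459, limma adjusted p = 4.28e-09), the largest absolute difference among called genes of the 4 lists. EIF2B3, a subunit of the exchange factor of eIF2, was higher in HAP1 by 1.68 (SE 0.0996, adjusted p = 1.19e-12).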
